A study of Mus musculus with 10 samples.

Results

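RelA regions that stayed called from 3 h to 8 h of lipopolysaccharide and that also carried strong glucocorticoid receptor signal were examined in primary macrophages of C57BL/6J mice, derived from bone marrow. The members were chosen by measured values of 4 ChIP-seq region lists. A RelA region of the 3 h list was taken if it shared at least 1 bp with a RelA region of the 8 h list, shared at least 1 bp with a glucocorticoid receptor region of cells given both lipopolysaccharide and dexamethasone whose highest tag density (MaxD) was 10 or more, and met no region of the input DNA. The rule gave 1371 members, which is 27.6% (Wilson 95% interval 26.3 to 28.8) of the 4972 regions of the 3 h list outside input, out of 5017 regions in that list and 115077 in all 10 lists. A further 5 regions met the other conditions but overlapped input. All intervals below are Wilson intervals unless named otherwise, and they cover counting error only.

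Lipopolysaccharide (LPS), a component of the outer membrane of Gram-negative bacteria, activates Toll-like receptor 4, after which the transcription factor NF-κB enters the nucleus. RelA (p65) is an NF-κB subunit that carries a transactivation domain, and it binds enhancers and promoters of inflammatory genes in macrophages. The glucocorticoid receptor (GR) is a ligand-activated nuclear receptor, and dexamethasone (Dex) is a synthetic ligand for it. GR can bind DNA elements of its own or associate with DNA-bound factors such as NF-κB and AP-1, and its ligands are used as anti-inflammatory drugs.

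RelA was precipitated with 1 antibody from cells without Dex at 0, 3 and 8 h of LPS, from cells given Dex 3 h before LPS at the same 3 times, and from cells with 8 h of LPS and Dex given late, an hour that the labels do not state. GR was precipitated with another antibody from cells treated with Dex or with both agents, for which the labels state no hours. GR chromatin was fixed with disuccinimidyl glutarate and formaldehyde and RelA chromatin with formaldehyde alone, and the input DNA came from untreated cells. Each condition had 1 library, so no test between conditions was possible and the spread between cultures is unknown. Read depth was not given in the sources used here. The scaling of tag densities between lists is unknown, and a region that was not called has no value in a list. Positions are on mm9 as deposited, and since the gene and sequence tables at hand were on another build, regions are given by position without gene names or sequences.

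Members were the stronger part of the RelA 3 h list, which follows in part from the rule. Their median MaxD was 28.0 at 3 h (quartiles 20.4 and 39.6, range 5.71 to 171) and 27.7 at 8 h (21.6 and 38.5, range 6.24 to 160), against 18.5 at 3 h over the whole list. Their median width was 709 bp. By quintile of the authors' 3 h score, members made up 5.73, 9.86, 19.2, 33.6 and 69.4% of the regions from the lowest to the highest. The ratio of 8 h to 3 h density had a median of 1.04 (quartiles 0.808 and 1.29). It was above 1 in 743 members, below 0.5 in 39 and above 2 in 51, so on the deposited scale 1281 members differed by no more than 2 times between the times.

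GR of LPS and Dex had a median MaxD of 37.1 at the members (24.3 and 59.6, range 10.0 to 746), with 208 members below 20 and 105 at 100 or more. The middle of the GR region lay a median of 45.5 bp from the middle of the RelA region, and within 100 bp in 1089 members (79.4%), although only overlapping regions entered. Strong GR was found at 88.1% of all 1556 RelA regions called at both LPS times (86.4 to 89.6) and at 48.7% of the 3416 called at 3 h only (47.0 to 50.4). Both values of this contrast were used by the rule, so it is a description of the choice. Regions of 3 h only were also weaker at 3 h, with a median MaxD of 17.8 with strong GR and 15.8 without, against 28.0 at members. Of the 185 regions of both times that were no members, 175 had no GR region of LPS and Dex at all and 10 had one below the bound. Just inside the bound stood chromosome 12, 41446791 to 41447198, with a GR density of 10.0 and RelA densities of 12.4 at 3 h and 23.4 at 8 h, and chromosome 17, 8155883 to 8156316, with 10.0, 8.15 and 14.5. Just outside stood chromosome 7, 136671306 to 136672085, with a GR density of 9.5 and RelA densities of 20.4 and 16.5, and chromosome 16, 35889481 to 35890158, with 8.83, 20.8 and 20.2.

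Few of these regions were called with Dex and LPS. With Dex and LPS together, whether Dex came early or late, 1176 of the 1371 members (85.8%, 83.8 to 87.5) had no RelA call. Over all 4972 regions the largest share called in any of these libraries was 4.24%, with late Dex. Missing calls were therefore not particular to members. Dex given before LPS left 11 members called at 3 h (0.802%, 0.449 to 1.43), against 0.241% of all 4972 regions, and 3 members at 8 h (0.219%, 0.0744 to 0.641), against 0.0805% of all regions. When regions had to share 50% of each other's length, these shares of members were 0.263% and 0.0876%. Late Dex left 193 members called at 8 h (14.1%, 12.3 to 16.0), against 4.24% of all regions. These lists differ in length, which limits the share of members that each could hold. Outside input lay 33 of the 84 regions of the pretreated 3 h list and 15 of the 78 of the pretreated 8 h list. For the late list it was 225 of 250. Of the members, 182 were called with late Dex and in neither pretreated LPS library, and 2 were called with pretreatment and LPS but not with late Dex.

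**Figure D1:**
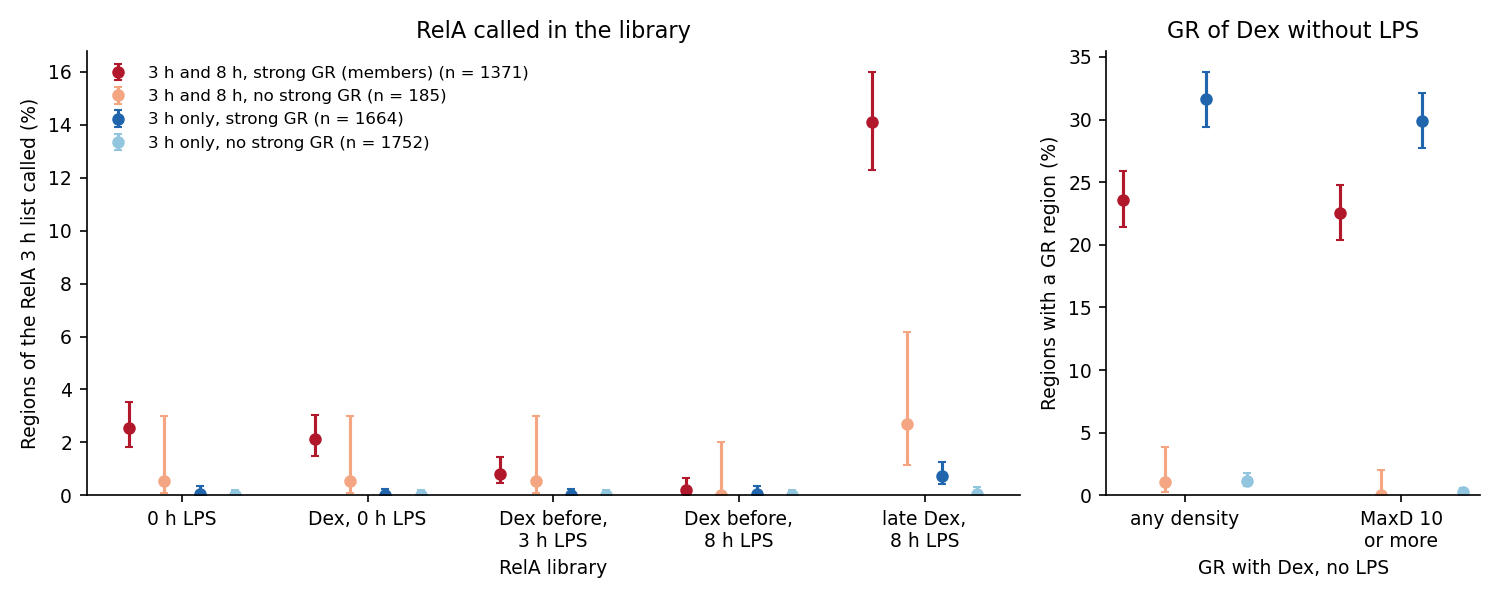
Share of RelA 3 h regions outside input that were called in each RelA library not used by the rule (left, %) and that met a GR region of Dex without LPS (right, %), for members and for the other classes of 3 h regions. Points are shares and bars Wilson 95% intervals. Members reached 14.1% with late Dex and no other class passed 2.70%. The classes of 3 h only had no call at 8 h without Dex by definition. GR of Dex was more frequent at regions of 3 h only with strong GR than at members.

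Outside input the late list held 225 regions, and 194 of them (86.2%, 81.1 to 90.1) met a member. Of the 1878 regions at 8 h without Dex, a list that the rule used, 74.1% met a member. Among regions of both LPS times without strong GR, 5 of 185 were called with late Dex (2.70%, 1.16 to 6.17). The share was 0.721% of the 1664 regions of 3 h only with strong GR and 0.0571% of the 1752 of 3 h only without it. Regions of 3 h only had no call at 8 h without Dex by definition, so their low shares followed in part from the rule. Members exceeded the regions of both times without strong GR by 11.4 percentage points (Newcombe 95% interval 7.5 to 13.9, counting error only), and by 10.9 points when shares were compared within quintiles of the 3 h score. The comparison rests on few regions of the second kind. They also had a lower 8 h density, with a median of 22.4 and an upper quartile of 27.4, against 27.7 and 38.5 for members. In the lowest 6 deciles of members by 8 h density, up to 30.8, the late share never passed 3.65%. The part of the 8 h density in the gap was not tested. In the highest score quintile the shares were 26.0% of 691 members (22.9 to 29.4) and 5.26% of 76 others (2.07 to 12.8).

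Members called with late Dex were strong before Dex. At 3 h their median MaxD was 55.9 (39.4 and 73.8), against 25.8 for the 1178 members not called. At 8 h it was 54.9 against 26.3, and the GR density with LPS and Dex was 64.9 (37.5 and 100) against 35.3 (23.4 and 53.2). Their 3 h regions were also wider, with a median of 876 bp against 679 bp. In deciles of the 8 h density the share called with late Dex stayed between 1.49 and 3.65% over the lowest 6. It was 13.9, 12.4 and 27.7% in the next 3 and 67.9% (95 of 140, 59.7 to 75.0) in the highest, which began at a density of 55.5.

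GR density went with the late call beside RelA density. Across tertiles of GR density, with bounds of 28.3 and 48.9, late Dex left 5.04, 10.5 and 26.7% of the members called. Within the highest tertile of 8 h RelA density, which began at 33.8, the shares were 22.6% of 84 members (15.0 to 32.6), 24.7% of 154 (18.5 to 32.0) and 44.0% of 225 (37.7 to 50.5). The median 8 h density in those 3 groups also differed, at 41.7, 44.7 and 49.7, and the part of that difference in the result was not tested. In the highest decile of 8 h density the order by GR tertile was 7 of 10 members, 25 of 43 (58.1%, 43.3 to 71.6) and 63 of 87 (72.4%, 62.2 to 80.7), whose intervals overlap.

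**Figure D2:**
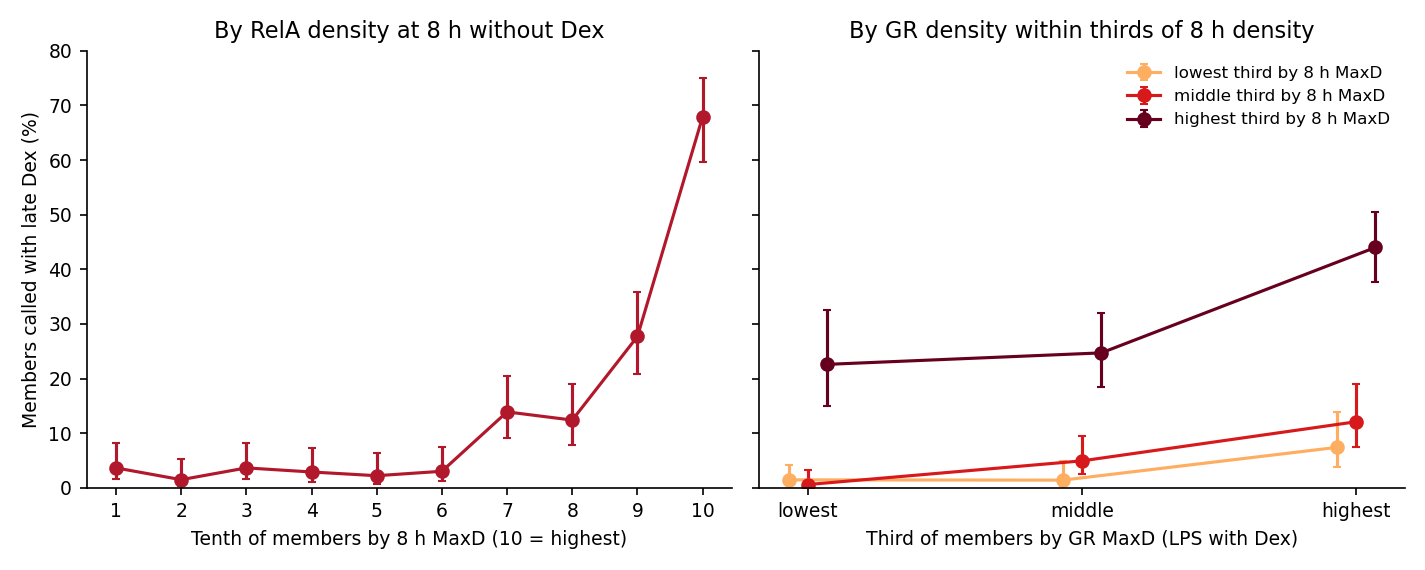
Share of members called with late Dex and 8 h of LPS (%), by decile of the 8 h RelA MaxD without Dex (left) and by tertile of GR MaxD within each tertile of 8 h RelA MaxD (right), with Wilson 95% intervals. The share stayed at or below 3.65% over the lowest 6 deciles and reached 67.9% in the highest, and within the highest 8 h tertile it was 44.0% at the highest GR density.

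Where RelA was still called with late Dex, its listed density was mostly lower than without Dex. The median late MaxD was 24.7 (19.8 and 29.9, range 6.34 to 74.4) over the 193 members. The ratio of late to 8 h density had a median of 0.434 (0.340 and 0.622) and was below 1 in 179 members and above 1 in 14. The scaling between these lists is unknown, so the level of the ratio is a description. Late densities spanned a narrower range than those at 8 h. A weak 8 h region enters this ratio only if its late density was high enough to be listed, which bears on the rank correlation of the ratio with the 8 h density over the 193 members (Spearman -0.73, a description without a test).

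**Figure D3:**
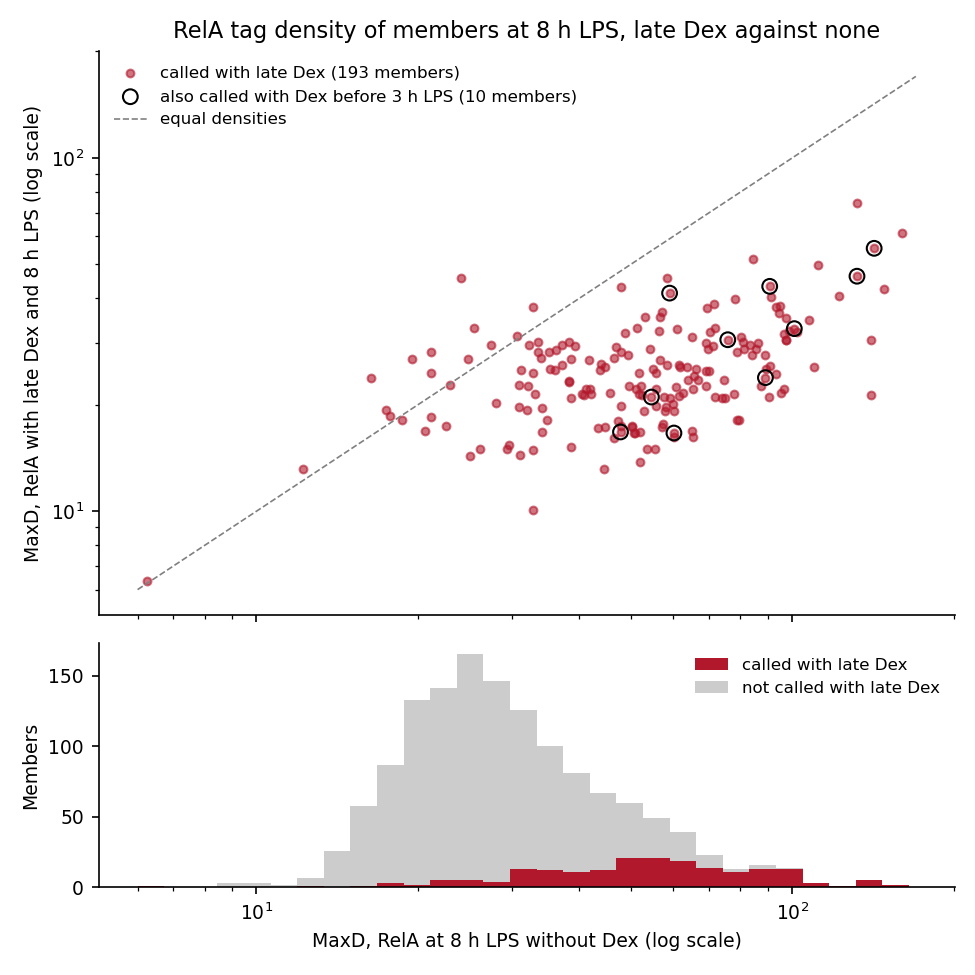
Top, MaxD of RelA with late Dex against MaxD without Dex at 8 h of LPS, both on log scales, for the 193 members called with late Dex; circles mark the 10 also called with Dex before 3 h of LPS, and the dashed line marks equal densities. Bottom, number of members by 8 h MaxD, called and not called with late Dex; 179 of the 193 points lie below the line and the called members sit mainly at high 8 h density.

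Single members show the spread of the listed late densities. Members not called with late Dex have no late density and no ratio. Among the 193 with one, the lowest late to 8 h ratio, 0.152, was at chromosome 10, 37057707 to 37058936. Its RelA densities were 107 and 140 with 3 h and 8 h of LPS and 21.3 with late Dex. Chromosome 2, 57149658 to 57150539, had 82.6, 140 and 30.6 in the same order, and chromosome 17, 29531743 to 29533017, had 111, 95.2 and 21.6. Chromosome 5, 105987104 to 105988112, had 69.3, 79.5 and 18.1, and chromosome 16, 3722996 to 3723974, had 87.6, 96.6 and 22.1. The highest late density of all members, 74.4, was at chromosome 17, 13202574 to 13203628, against 164 at 3 h and 132 at 8 h. That region was also listed at 37.6 without LPS or Dex and at 27.6 with Dex alone, and its GR density was 100.

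A small group had a higher density with late Dex than without. In 12 of the 14 such members the 8 h density was below the 3 h density, and their GR density with both agents had a median of 120 (range 12.4 to 746). The highest ratio, 1.9, was at chromosome 19, 22022084 to 22023086, where RelA density was 133 and 24.1 with 3 h and 8 h of LPS and 45.7 with late Dex. GR there reached 385 with LPS and Dex and 15.4 with Dex, the largest GR ratio of any member at 25.0. Chromosome 11, 109271538 to 109272384, had RelA densities of 68.6, 19.5 and 27.0 in the same order, with GR at 225 with both agents and 11.3 with Dex. Chromosome 17, 26671788 to 26672874, had 108, 21.2 and 28.2 and the highest GR densities of all members, 746 with both agents and 346 with Dex. At chromosome 11, 72242582 to 72243426 (37.9, 16.3 and 23.8) and chromosome 2, 32243046 to 32244097 (51.8, 25.5 and 33.1) GR stood at 141 and 124 with both agents and was not called with Dex. All 5 of these highest ratios came from regions whose 8 h density was below 0.5 of the 3 h density. Over the 39 members of that kind, 11 were called with late Dex (28.2%, 16.5 to 43.8), against 13.9% (12.1 to 15.9) of the 1281 with a ratio from 0.5 to 2 and 4 of the 51 above 2 (7.84%, 3.09 to 18.5). The low 8 h density forms part of both ratios, so they are not independent.

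No RelA call was made in any Dex library at 1171 members (85.4%). Calls were rarer still over all 3 h regions, at most 4.24% in any single Dex library. Some of the 1171 were strong at 3 h. By 3 h score they were led by chromosome 14, 32202612 to 32203503, with RelA at 76.5 at 3 h and 64.4 at 8 h and GR at 50.1. Chromosome 11, 64468359 to 64469269, followed with RelA at 71.8 and 89.2 and GR at 50.1, and chromosome 10, 98543986 to 98544846, with 71.0, 67.0 and 35.9. Chromosome 17, 29530358 to 29531736, at 69.7 and 60.3, ended just before the called region of that chromosome named above (from 29531743). Merging within 500 bp joins these neighbours, so their different late calls depend on how the regions were split. Chromosome 12, 120386044 to 120387004, had RelA at 99.0 at 3 h but 28.0 at 8 h, with GR at 19.9.

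The 11 members called with Dex before 3 h of LPS had a median MaxD of 92.3 at 3 h without Dex, and 10 of them lay between 66.4 and 171. With pretreatment their densities ran from 12.2 to 25.7 (median 18.9), and all 11 were lower than without Dex. They made up 11 of the 33 regions of that list outside input. Of the 11, 7 were also listed without LPS and Dex, and the same number with Dex alone. At chromosome 10, 18734572 to 18735829, RelA density without Dex was 31.9 at 0 h, then 171 and 142 with 3 h and 8 h of LPS. There it was 23.7 with Dex alone, 25.7 with pretreatment and 3 h of LPS, and 55.5 with late Dex. Chromosome 2, 167602606 to 167603704, had 25.0, 162 and 90.7 without Dex, 19.9 with Dex alone, 17.9 with pretreatment before 3 h of LPS, and 43.3 with late Dex. Chromosome 10, 77597384 to 77599198, had 19.4, 151 and 89.1, then 20.3 and 13.5, and 23.9 with late Dex. Over the 7 members with a value at 0 h, the pretreated density after LPS was below that of untreated cells in 6, and the late density was above it in 6. The exceptions were chromosome 1, 133173183 to 133174078, with 14.2 at 0 h and 21.0 with pretreatment, and chromosome 6, 48779399 to 48780256, with 38.8 at 0 h and 16.6 with late Dex.

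Other members of the pretreated 3 h list had no call without LPS. Chromosome 19, 6945023 to 6946053, was the only member in both pretreated LPS libraries, at 16.6 at 3 h and 20.1 at 8 h, against 117 and 132 without Dex and 46.2 with late Dex. Chromosome 8, 93605681 to 93606415, had 18.9 with pretreatment and 41.4 with late Dex, against 66.4 at 3 h and 59.0 at 8 h. Chromosome 1, 153500388 to 153501169, had 20.3 and 21.0, against 68.1 and 54.6. Chromosome 17, 7603083 to 7603902, was the only one of the 11 not called with late Dex. Its 3 h density of 29.5 was near the median of all members, and it had GR of 12.7 with both agents and 10.8 with Dex.

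The other 2 members called with pretreatment and 8 h of LPS were weak. Chromosome 10, 5744156 to 5745299, had RelA at 25.4, 18.6 and 8.83 with pretreatment. Chromosome 12, 5623200 to 5623572, had RelA densities of 7.23, 6.42 and 6.24 over 0, 3 and 8 h of LPS, 8.56 with pretreatment and 8 h, and 6.34 with late Dex, nearly the same in every RelA list that held it. Its GR was lower with both agents (12.4) than with Dex (13.5), the only such member. Both had a 3 h score that was high for their density, with score to density ratios of 1.82 and 2.39 against a median of 0.737 over members. Without members of a ratio of 1.3 or more, the pretreated 8 h share was 0.0736%.

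Resting RelA was found at few members. RelA was called at 35 members before LPS (2.55%, 1.84 to 3.53), against 0.744% of all 3 h regions. They met 35 of the 47 regions of the 0 h list outside input (74.5%). That share was near the 74.1% of the 8 h list, which the rule used to choose members. With Dex alone 29 members were called (2.12%, 1.48 to 3.02), against 0.603% of all regions, and 18 members were called in both of these libraries. When regions had to share 50% of each other's length, the share was 0.788% with Dex alone and 1.58% at 0 h. At the 35, the median density was 21.8 at 0 h and 78.0 at 3 h, and it was lower at 0 h in 34. Late Dex left 34 of the 46 members called in either library (73.9%, 59.7 to 84.4) and 159 of the 1325 others (12.0%, 10.4 to 13.9). The 46 had a median 8 h density of 64.2, which lies in the highest decile, where 67.9% of all members were called with late Dex. In the 25 members listed both at 0 h and with late Dex, the late density was the higher in 22.

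GR of Dex without LPS was found at a minority of members. A GR region of any density was present at 323 (23.6%, 21.4 to 25.9), against 17.5% of all RelA 3 h regions. With MaxD of 10 or more it was present at 309 (22.5%, 20.4 to 24.8), against 16.3% of all. That background includes regions without strong GR, and over all 16366 strong GR regions of LPS and Dex the share with GR of Dex at MaxD 10 or more was 19.5% (18.9 to 20.1), and at any density 21.8% (21.2 to 22.4). The remaining 1048 members (76.4%) had GR with LPS and Dex but none called with Dex alone. At the 323 the median MaxD was 17.3 with Dex (13.7 and 23.7). The density with both agents was higher in 322 of them and more than 2 times higher in 301, with a median ratio of 3.58 (2.71 and 4.76). The rule set a lower bound on the density with both agents and none on that with Dex, and the scaling between the GR lists is unknown, so the level of this ratio is a description.

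**Figure D4:**
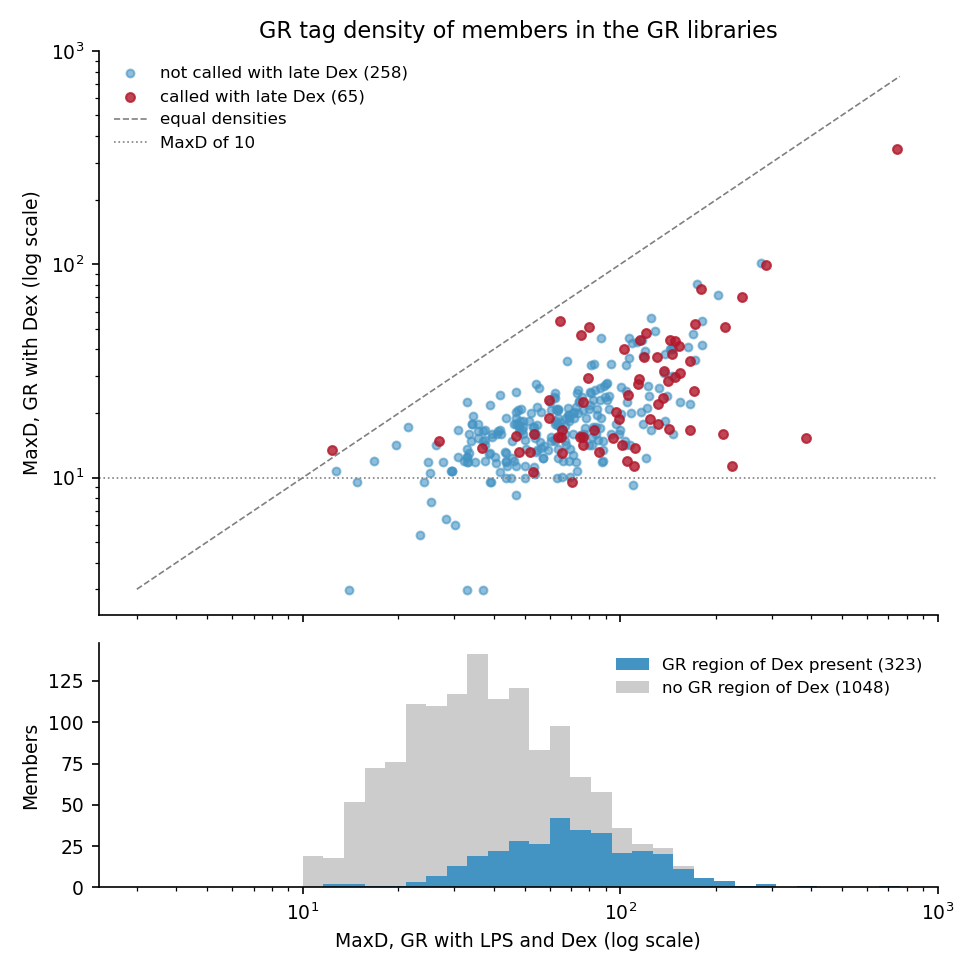
Top, GR MaxD with Dex against GR MaxD with LPS and Dex, both on log scales, for the 323 members with a GR region in both lists, coloured by the late Dex call; the dashed line marks equal densities and the dotted line a MaxD of 10. Bottom, number of members by GR MaxD with both agents, with and without a GR region of Dex; 322 of 323 points lie below the line of equal densities.

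Members carried GR of Dex less often than other regions of equally strong GR. The share with GR of Dex at MaxD 10 or more was 22.5% for members and 29.9% (27.7 to 32.1) for the 1664 regions of 3 h only with strong GR. The difference was -7.33 points (Newcombe 95% interval -10.4 to -4.19, counting error only), although members had the higher GR density with both agents (median 37.1 against 29.5). Within quintiles of the 3 h score the difference was -11.9 points, and within ranges of GR density -12.1 points. At GR densities of 20 to 40 GR of Dex was found at 7.45% of members (5.52 to 9.98) and 17.3% of the regions of 3 h only (14.6 to 20.3). At 40 to 80 the shares were 31.6% (27.4 to 36.0) and 49.5% (44.4 to 54.5), and at 80 and over 69.9% (62.7 to 76.2) and 84.4% (78.9 to 88.6). The 13100 strong GR regions that met RelA neither at 3 h nor at 8 h stood near the latter, at 17.3, 51.6 and 85.1% in those ranges. At 10 to 20, which held 6554 of the 13100, their share was 8.56% (7.91 to 9.26). In that range it was 5.07% (3.34 to 7.63) at regions of 3 h only and 1.92% (0.75 to 4.84) at members. The ratio of GR density with both agents to that with Dex had a median of 3.58 at members, 2.74 at 525 regions of 3 h only and 1.98 at 2689 regions without RelA, but it rose with GR density. The gap was smaller at 20 to 40, with medians of 2.53, 2.13 and 1.94, and at 40 to 80, with 3.53, 3.1 and 2.87. At 80 and over the medians were 4.42, 3.25 and 3.14, and there the gap to regions of 3 h only was not smaller. These ranges were set after earlier results were known, and no replicate shows how far they would move in a repeat.

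**Figure D5:**
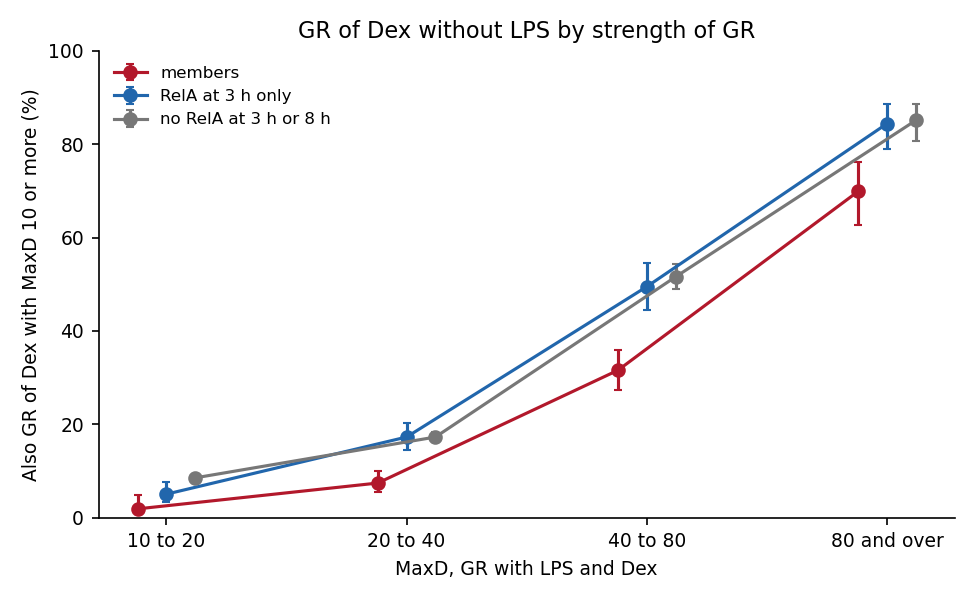
Share of regions (%) that also met a GR region of Dex with MaxD 10 or more, by range of GR MaxD with LPS and Dex, for members, for RelA regions of 3 h only with strong GR, and for strong GR regions without RelA at 3 h or 8 h; bars are Wilson 95% intervals. Members lay lowest in all 4 ranges, with 31.6% against 49.5% and 51.6% at 40 to 80.

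Members with GR of Dex had on the median a higher GR density with both agents, 69.7 against 32.2 for the members without GR of Dex at MaxD 10. Still, 232 of the 457 members in the highest tertile of GR density had it (50.8%). Late Dex left 64 of the 309 with it called (20.7%, 16.6 to 25.6) and 129 of the 1062 without it (12.1%, 10.3 to 14.2). Among members in the highest tertile of both 8 h RelA and GR density the shares were 46.7% of 105 and 41.7% of 120, which were closer to each other. The strongest members by 3 h score lay on both sides. Chromosome 2, 167579186 to 167580092, had GR of 180 with both agents and 76.8 with Dex, and RelA of 137 (3 h), 84.5 (8 h) and 51.6 (late Dex). Chromosome 7, 25905111 to 25906102, had GR of 22.5 with both agents and none with Dex, and RelA of 88.6, 53.2 and 35.4. Members of the highest GR density were found with and without a late call. Chromosome 7, 17643265 to 17644911, had GR of 288 with both agents and 98.9 with Dex, and RelA of 46.1, 18.7 and 18.1. Chromosome 3, 9886430 to 9887207, had GR of 243 and 70.4 and RelA of 37.8, 43.9 and 26.2. Chromosome 3, 108658416 to 108659510, had GR of 278 and 102 and RelA of 44.4 and 28.3, and was not called with late Dex.

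Members lay on every autosome and on X. They made up 22.7% of the 3 h regions of X (25 of 110, 15.9 to 31.4) and 33.7% of those of chromosome 14 (27.3 to 40.7). These were the lowest and highest shares among these chromosomes, and their intervals overlap. Most members were alone, and 305 (22.2%) had another member within 10000 bp. The 2 largest such groups held 6 members over 22628 bp on chromosome 4, 144844115 to 144866743, and 5 members over 27081 bp on chromosome 14, 103432667 to 103459748. In each of these groups 1 member was called with late Dex. Late Dex left 20.0% (15.9 to 24.8) of the grouped members called and 12.4% (10.5 to 14.5) of the 1066 alone. The part of the 8 h density in this difference was not tested.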

How the data were processed

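ChIP-seq regions of 10 libraries of mouse macrophages were used (7 RelA, 2 GR, 1 input). Per the submitters' processing notes, CASAVA and the build mm9 were used; the caller of the regions, its threshold and the scaling of densities are not given in the sources used here. Per the file headers, each deposited region has a highest and a mean tag density (signal), a Z-score (score) and a p-value, the authors' own values; the p-value was not used. The lowest score per list ran from 8.88 to 10.9.

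Overlaps (at least 1 bp), medians, quartiles and Wilson 95% intervals were computed with Python 3.11.15, pandas 2.3.3, numpy 2.4.6 and scipy 1.17.1, and the overlap code was tested on simulated regions. Where a member met several regions of a list, the highest density was taken. With 1 library per condition there is no test and no count of reads. Members and classes were chosen with earlier results of these data known. Regions named were taken from the 5 of highest 3 h score in each call class, the 5 highest and lowest late to 8 h ratios, the 5 highest GR densities, 2 on each side of the GR bound, and members called with pretreatment. The region of highest late density falls in the first class. Alternatives covered overlap, input filter, GR bound, score bound, merging and mean density. Gene names and sequences were not used, for want of tables on mm9.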

Additional observations from a re-analysis of the deposited data

How the results depend on the processing

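Of 101 values recomputed under alternatives, 85 stayed within the counting interval of the value reported (within 1.5 times for the number of members). The other 16 moved out of it, and for those 16 the cause was not tested unless named. No ratio or difference in share changed direction, and counts, shares and distances have no direction to change. When regions had to share 50% of each other's length, the shares were 10.1% for late Dex, 0.263% and 1.58% for pretreatment with 3 h of LPS and for 0 h, 0.788% for Dex alone, and 18.3% and 18.7% for GR of Dex at high and at any density; the late to 8 h ratio was 0.477 and the centre distance 41.8 bp. With GR MaxD of 20 or more, applied to both GR lists, they were 16.1% for late Dex and 10.5% and 27.3% for GR of Dex. A RelA score of 11 or more gave 12.2% for late Dex, and merging within 500 bp a centre distance of 50.0 bp. A further 3 alternatives were chosen after seeing the data: leaving out members of high score to density ratio (0.0736% for pretreatment with 8 h), and comparing GR of Dex with regions of 3 h only within score quintiles (-11.9 points) or ranges of GR density (-12.1 points). No paired analysis was possible because each condition had 1 library. A region that was not called is below a list's threshold, which is no value of 0; read depth, densities' scaling and variation between cultures are unknown.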
